A study of Mus musculus with 6 samples.

Results

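Embryonic globins and other genes of the red cell lineage were followed over the 6 arrays of a study of the transcription factor Olig2 in the embryonic mouse forebrain. The rule took each non-control probe set whose platform annotation gave exactly 1 gene symbol, where that symbol was one of 9: Hba-x, Hbb-bh1, Hbb-y, Alas2, Slc4a1, Epb42, Ahsp, Tfrc or Klf1. It found 17 of 45037 probe sets, from 8 of the 9 genes, and Ahsp was not analysed here. Of the 17, 13 probe sets of 6 genes lay above their array's own median on at least 3 of 6 arrays and were tested, as were 22565 probe sets in all. The embryonic globins held 7 probe sets of 3 genes, all tested. The other erythroid genes held 7 probe sets of 4 genes, of which 3 were tested, and Tfrc held 3, all tested.

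RNA came from ventral telencephalon of embryos at E13.5, either Olig2-/- (knockout) or Olig2+/+ (wild type), with no other allele or agent named. Each array carried RNA pooled from 3 brains. The design text speaks of 5 replicates per genotype, of which 3 were analysed here: replicates 2, 4 and 5 of the knockout, with 1, 4 and 5 for wild type. The Olig2 allele's construction, the strain, the litters and any removal of blood before extraction are not stated in the labels. No promoter or Cre that would limit the loss of Olig2 to some cells is named, and each array reads a mixture of all cells of the dissected tissue. All values are log2 expression values from GCRMA, a method that subtracts background by probe sequence, and differences are knockout minus wild type on that log2 scale. With 3 pooled arrays per genotype, a p-value measures the spread between these pools.

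Red blood cells of the early mouse embryo come from the yolk sac. They enter the circulation with their nuclei and carry haemoglobin made of embryonic globin chains: the zeta chain of Hba-x, the epsilon-y chain of Hbb-y and the beta-h1 chain of Hbb-bh1. Cells from the fetal liver, which carry adult globins, join them around mid-gestation, and a dissected brain contains both in its vessels. Haem for these chains is made through Alas2, the erythroid form of the first enzyme of haem synthesis. Slc4a1 (band 3) and Epb42 (protein 4.2) build the membrane and its skeleton, Klf1 is a transcription factor of the lineage, and Tfrc takes up iron bound to transferrin. Tfrc also serves other dividing cells and the endothelium of brain vessels. In such bulk RNA, fewer cells of a type and less RNA per cell cannot be told apart.

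The array medians lay between 3.14 and 3.20 and the highest values between 14.56 and 14.71. The lowest value was 2.27 on every array, and 33.2% to 33.7% of probe sets lay within 0.03 of it. Olig2 itself (1416232_at) was lower on each knockout array (7.48 to 7.76) than on each wild-type array (8.20 to 8.42), and whether its probes lie in the deleted stretch is not given. The tissue's markers Dlx1, Dlx2, Dlx5, Lhx6, Lhx8, Gsx2, Gad1, Gad2 and Olig2 were all above the filter, and Nkx2-1 was not, at 3.36 or less. Knockout replicate 2 correlated best with wild-type replicate 4 (Pearson r = 0.994 across the tested probe sets), an array of the other genotype. Wild-type replicate 1 was least like the rest, with r between 0.974 and 0.985. Knockout replicate 2 also stood 1.88 above the mean of the arrays in the tested meningeal and mesenchymal genes (4 of 12 listed), while each of the other arrays lay between -0.60 and 0.06.

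The promoter windows below are printed to show which of a few short promoter words stand before some of the members. Printed are the bright globin genes Hba-x and Hbb-y, the dim erythroid gene Alas2 and Tfrc. Hbb-bh1 and Slc4a1 had no window. Each is the 250 bases before the RefSeq start on GRCm38.p6, read along the gene's own strand, and capitals mark the motif letters found. Searched on both strands were the GATA words AGATAA or AGATAG as well as TGATAA or TGATAG, then the word CCACCC bound by factors of the Klf1 family, and CCAAT. The TATA words ATAAAA and TATAAA were searched on the gene's own strand only. Of 32817 such windows, 26.6% held a GATA word, 28.1% CCACCC, 33.8% CCAAT and 14.2% a TATA word. The windows lie at chr11:32276350-32276599 on the plus strand for Hba-x, chr7:103853208-103853457 on the minus strand for Hbb-y, chrX:150547167-150547416 on the plus strand for Alas2 and chr16:32608646-32608895 on the plus strand for the first of 2 listed starts of Tfrc.
Hba-x: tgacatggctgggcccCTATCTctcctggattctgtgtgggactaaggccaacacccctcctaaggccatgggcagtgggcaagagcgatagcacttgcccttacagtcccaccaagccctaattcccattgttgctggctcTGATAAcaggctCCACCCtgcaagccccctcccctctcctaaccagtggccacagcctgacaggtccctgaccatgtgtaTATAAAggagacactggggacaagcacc
Hbb-y: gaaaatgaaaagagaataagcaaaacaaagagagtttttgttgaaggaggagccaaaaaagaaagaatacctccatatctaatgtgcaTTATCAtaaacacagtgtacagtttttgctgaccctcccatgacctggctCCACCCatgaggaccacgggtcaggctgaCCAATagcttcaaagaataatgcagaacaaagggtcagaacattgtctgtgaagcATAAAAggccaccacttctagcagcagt
Alas2: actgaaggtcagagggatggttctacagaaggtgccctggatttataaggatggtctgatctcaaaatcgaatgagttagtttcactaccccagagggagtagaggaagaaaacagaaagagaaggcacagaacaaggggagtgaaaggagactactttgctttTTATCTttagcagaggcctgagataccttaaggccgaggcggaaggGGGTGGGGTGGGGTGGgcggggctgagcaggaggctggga
Tfrc: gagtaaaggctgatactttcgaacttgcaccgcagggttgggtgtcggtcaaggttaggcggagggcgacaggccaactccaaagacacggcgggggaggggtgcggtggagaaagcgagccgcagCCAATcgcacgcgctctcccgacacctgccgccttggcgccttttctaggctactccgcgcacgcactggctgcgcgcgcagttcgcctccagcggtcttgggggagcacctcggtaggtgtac
Counting -1 as the last base before the start, Hba-x held a GATA word from -108 to -103, CCACCC from -96 to -91 and TATAAA from -28 to -23, plus a further GATA word from -234. Hbb-y held a GATA word from -162, CCACCC from -112, CCAAT from -83 and a TATA word at the same -28 to -23. Alas2 held a GATA word from -86 to -81 and 3 overlapping copies of CCACCC on the other strand between -40 and -25, with no CCAAT or TATA word. The Tfrc window printed held CCAAT from -124 and no other searched word, and its GC content was 64.8% against a median of 52.4% over all windows. In windows not printed, Epb42 and Klf1 held a GATA word each, and Klf1 also held CCAAT from -64. The other start of Tfrc held 3 copies of CCACCC on the other strand. A match of letters is a description of the window and not a measured site.

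On GRCm38.p6, RefSeq places Hba-x at chr11:32276600-32278116, Hbb-bh1 at chr7:103841638-103843162 and Hbb-y at chr7:103851754-103853207. The lower coordinates of the beta-type genes lie 10.12 kb apart. Probe sets whose name ends in _x_at or _s_at are marked by the manufacturer as sharing probes with other transcripts, and _a_at as matching several transcripts of 1 gene. Tfrc lies at chr16:32608896-32632794, on the chromosome of Olig2 but 58.62 Mb from its start.

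Embryonic globin transcripts were bright in the forebrain RNA of both genotypes, and the genotypes overlapped on each of their probe sets. Hba-x (1448716_at) read 9.75, 10.41 and 9.91 on knockout replicates 2, 4 and 5, while on wild-type replicates 1, 4 and 5 it read 9.28, 10.02 and 10.41. The highest and the lowest array were both wild type, so the knockout values lay inside the wild-type range. The means were 10.02 ± 0.35 in the knockout, with 9.90 ± 0.58 for the wild type (SD, n = 3 each). The difference was 0.12 (SE 0.33, 95% interval -0.69 to 0.92, limma adjusted p = 0.891).

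Hbb-bh1, the beta-type chain made mainly in the earliest red cells, had the widest spread of the globins. On its probe set 1450736_a_at the knockout arrays read 7.63, 9.07 and 8.44 and the wild-type arrays 7.20, 7.68 and 9.03, in the same replicate order. Knockout replicate 4 and wild-type replicate 5 were high, wild-type replicates 1 and 4 and knockout replicate 2 were low, and the genotypes overlapped. From lowest to highest this is a 3.65-fold range, wider than that of 98.3% of tested probe sets, whose median range was 0.47 in log2 units. The means of Hbb-bh1 were 8.38 ± 0.72 in the knockout, with 7.97 ± 0.95 for the wild type (SD, n = 3 each), a difference of 0.41 (SE 0.57, interval -1.005 to 1.823, limma adjusted p = 0.761). Leaving out wild-type replicate 1 gave 0.02, and leaving out replicate 5 of that genotype gave 0.94.

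The other probe sets of Hbb-bh1 gave the same picture of high and low arrays. On 1437810_a_at the knockout arrays read 7.65, 9.10 and 8.47 and the wild-type arrays 7.41, 7.75 and 9.17, a difference of 0.30 (SE 0.57, limma adjusted p = 0.829). On 1437990_x_at they read 8.19, 9.41 and 9.05 against 7.95, 8.14 and 9.48, a difference of 0.36 (SE 0.50, limma adjusted p = 0.761). Wild-type replicate 1 was lowest on all 3 probe sets of Hbb-bh1, and genotype accounted for 4.54% to 8.14% of their sum of squares. Over the other globin probe sets this share ran from 2.19% (Hba-x) to 21.28% (Hbb-y 1450621_a_at). For the Tfrc probe sets it ran from 31.16% to 52.13%.

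Hbb-y, the other early beta-type chain, read close to the top of the arrays' scale on its _x_at probe sets. On 1436717_x_at the knockout arrays read 14.00, 14.03 and 14.11 and the wild-type arrays 13.94, 14.03 and 14.09. On 1436823_x_at they read 13.98, 14.06 and 14.10 against 13.91, 14.02 and 14.10. These ranges, 0.16 and 0.19, were narrow beside the third probe set, and near the top of the scale differences can be compressed. On 1450621_a_at the knockout arrays read 12.88, 13.33 and 13.06 and the wild-type arrays 12.38, 13.02 and 13.07, a range of 0.95. Wild-type replicate 1 was again lowest and the genotypes overlapped on each probe set of Hbb-y. The differences were 0.03, 0.04 and 0.27, and for the dimmest of the 3 probe sets, 1450621_a_at, the interval ran from -0.28 to 0.81 (SE 0.22, limma adjusted p = 0.615).

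**Figure D1:**
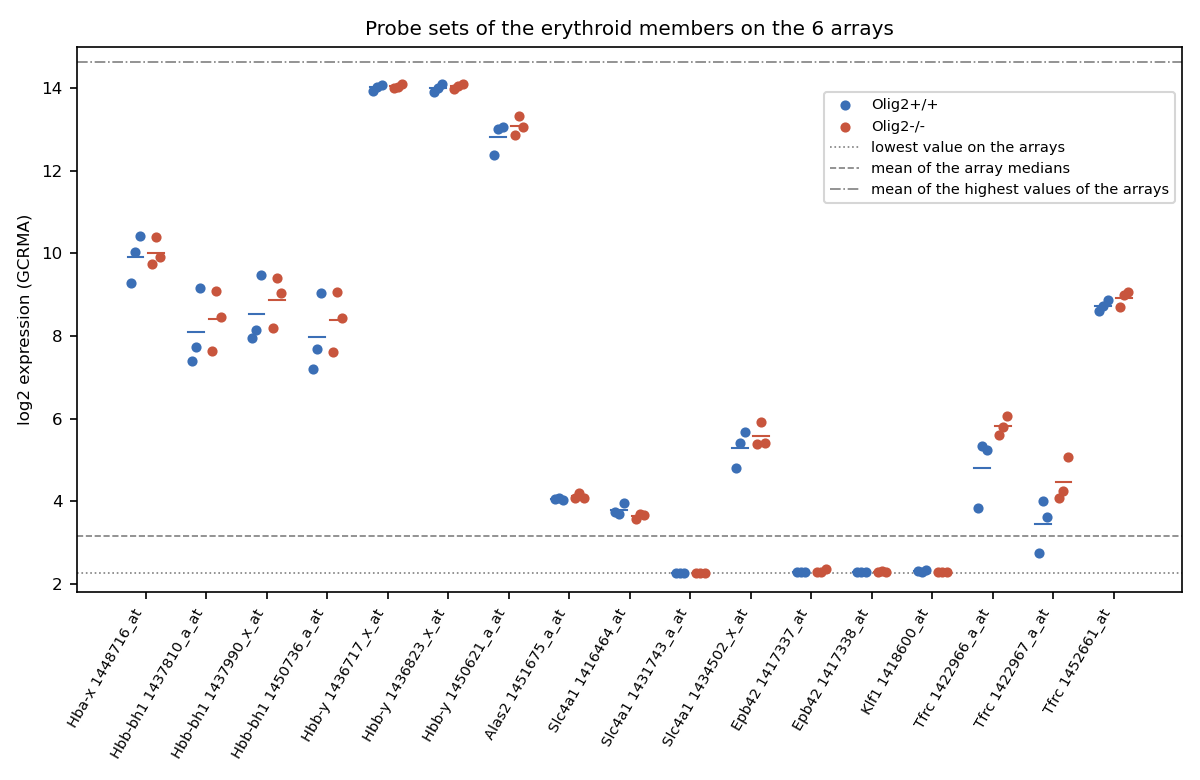
Log2 GCRMA expression (y axis) of every member probe set on each of the 6 arrays, 1 point per array and probe set, coloured by genotype, with short bars at the group means and lines at the lowest value, the mean array median and the mean highest value. The embryonic globins stand between 7.20 and 14.11, Epb42 and Klf1 and 1 Slc4a1 probe set lie at the floor of the scale near 2.27, and the knockout points lie above all wild-type points in 2 Tfrc probe sets alone among the 13 tested.

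Of the other erythroid members, Epb42, Klf1 and 1 probe set of Slc4a1 lay at the floor and give only an upper bound, while the remaining Slc4a1 probe sets and Alas2 read above it. Alas2 (1451675_a_at) read 4.08, 4.196 and 4.08 in the knockout against 4.06, 4.08 and 4.04 for wild type, with 1 identical deposited value on 3 of the arrays. Such repeated values are what GCRMA can return where it takes a signal for background, so passing the filter on the array median does not show that Alas2 RNA was detected. Its difference was 0.06 (SE 0.07, limma adjusted p = 0.716). Epb42 read 2.29 to 2.37 on 1417337_at and 2.30 on every array on 1417338_at. Klf1 (1418600_at) read 2.28 on each knockout array and 2.28 to 2.34 in the wild type, so neither gene passed the filter on low values and no direction can be read from them.

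Slc4a1, the anion exchanger of the red cell membrane, gave 3 unlike readings. Its probe set 1431743_a_at was at the floor of 2.27 on every array. On 1416464_at the knockout arrays read 3.58, 3.69 and 3.67 and the wild-type arrays 3.74, 3.68 and 3.97, a difference of -0.15 (SE 0.10, limma adjusted p = 0.555). On 1434502_x_at, the brightest, they read 5.40, 5.91 and 5.40 against 4.81, 5.40 and 5.67. Here wild-type replicate 1 was lowest and knockout replicate 4 highest, and the difference was 0.27 (SE 0.26, limma adjusted p = 0.656). Leaving out wild-type replicate 1 gave 0.03, and leaving out replicate 5 of that genotype gave 0.46. The probe sets of Slc4a1 thus disagreed in sign, and only the brightest followed the order of arrays seen in Hba-x, with r = 0.96 and Spearman's rho = 0.94 over 6 shared arrays, or r = 0.92 without wild-type replicates 1 and 5. This correlation is given as a description, since both genes were read from the same RNA on the same arrays.

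Tfrc was the member with the largest mean difference, seen at 2 of its 3 probe sets. On 1422966_a_at the knockout arrays read 5.61, 5.79 and 6.08 and the wild-type arrays 3.84, 5.34 and 5.24. On 1422967_a_at they read 4.08, 4.25 and 5.08 against 2.74, 4.01 and 3.62. On both, each knockout array lay above each wild-type array, and wild-type replicate 1 stood well below the other wild-type arrays. On the second probe set its 2.74 lay below that array's own median of 3.17, so this reading may not stand above background. The first gave 5.83 ± 0.24 in the knockout, with 4.81 ± 0.84 for the wild type (SD, n = 3 each), a difference of 1.02, or 2.03-fold (SE 0.42, interval -0.02 to 2.06, limma adjusted p = 0.511). The second gave 4.47 ± 0.54 and 3.46 ± 0.65, also a difference of 1.02 (SE 0.41, interval 0.01 to 2.02, limma adjusted p = 0.511). Both read the same gene on the same arrays and count as 1 observation of Tfrc, not as a pair.

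The brightest probe set of Tfrc differed less. On 1452661_at the knockout arrays read 8.71, 8.98 and 9.07 and the wild-type arrays 8.60, 8.74 and 8.88, and the genotypes overlapped through knockout replicate 2. Its difference was 0.18 (SE 0.13, interval -0.13 to 0.50, limma adjusted p = 0.567). Without wild-type replicate 1 the 3 differences of Tfrc were 0.54, 0.66 and 0.11, and the knockout arrays still lay above the remaining wild-type arrays on the first pair of probe sets. Without knockout replicate 5 the differences were 0.89, 0.71 and 0.11. With knockout replicate 2 and wild-type replicate 4, the arrays of unlike genotype that resemble each other most, both left out, they were 1.40, 1.49 and 0.29.

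Over all members, none of the 13 tested probe sets passed an adjusted p of 0.05, nor did any of the 22565 tested (0.0%), and the members' adjusted p ran from 0.511 to 0.893. At an unadjusted limma p under 0.05 there was 1 member, Tfrc 1422967_a_at, against 9.4% of all tested probe sets, and 4.98% for those higher in the knockout. Without overlap between genotypes, and higher in the knockout, were 2 of 13, both of Tfrc, against 8.96% of all tested probe sets. None lay wholly below, against 7.25%, and either way the share of all tested was 16.2%. The mean was higher in the knockout at 12 of 13 probe sets, with a median difference of 0.27, where 50.7% of all tested probe sets were higher and the median was 0.00. These probe sets share genes and arrays and are not independent. Without wild-type replicate 1, which was lowest on 11 of the 13, 8 of 13 were higher, against 51.1% of all tested. As a sign of RNA quality, the log2 value of the 3' control of Gapdh minus that of its 5' control was also read. It lay lower on each knockout array (-0.65 to -0.59) than on each wild-type array (-0.53 to -0.41). The same gaps of beta-actin and Tfrc overlapped between the genotypes, and the part of RNA quality in these values was not tested. Array weights, by which limma gives less weight to arrays that fit poorly, left 7 of 13 higher.

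**Figure D2:**
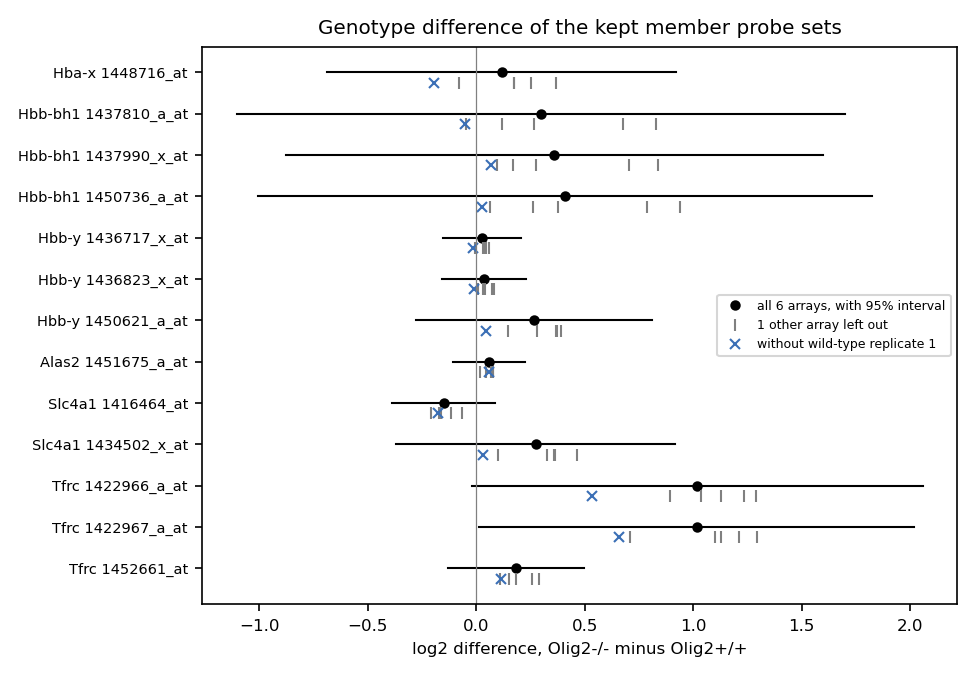
Log2 difference, knockout minus wild type (x axis), of the 13 tested member probe sets, as dots with 95% intervals from limma. Ticks show the difference with 1 other array left out and crosses that without wild-type replicate 1; 12 of 13 dots lie above 0, and every interval but that of Tfrc 1422967_a_at includes 0.

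Set against each other array by array, the 3 classes of member shared their lowest array but not their highest. Each class was read as the mean over its genes of an array's deviation from the 6-array mean of the gene's brightest probe set. The embryonic globins stood at -0.25, 0.38 and 0.12 on knockout replicates 2, 4 and 5, while wild-type replicates 1, 4 and 5 stood at -0.51, -0.17 and 0.43. Wild-type replicate 5 and knockout replicate 4 were high and wild-type replicate 1 and knockout replicate 2 low, so the order did not separate the genotypes. The other erythroid genes with a tested probe set, Alas2 and Slc4a1, stood at -0.02, 0.29 and -0.02 against -0.32, -0.02 and 0.10, and this rests almost wholly on Slc4a1 1434502_x_at. Tfrc stood at -0.12, 0.15 and 0.24 against -0.23, -0.09 and 0.05.

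The mean genotype differences of the classes were 0.17 for the embryonic globins, 0.17 for Alas2 and Slc4a1, and 0.18 for Tfrc, beside SDs over the wild-type arrays of 0.47, 0.22 and 0.14, and the genotypes overlapped in each class. Embryonic globins minus other erythroid genes differed by 0.00 between the genotypes, and embryonic globins minus Tfrc by -0.02. These contrasts ranged over the arrays from -0.23 to 0.33 and from -0.28 to 0.38, with wild-type replicate 5 highest in both. The first contrast averages Slc4a1 1434502_x_at with Alas2, whose differences were 0.27 and 0.06, and Alas2 was not shown to be detected. With each gene as the mean of all its tested probe sets, globins minus other erythroid genes differed by 0.13. Without wild-type replicate 1 the globin difference was -0.05 and that of Alas2 and Slc4a1 0.05. Without wild-type replicate 5 they were 0.42 and 0.25. With Tfrc alone taken as the mean of its 3 probe sets, the globin minus Tfrc contrast between the genotypes was -0.57, so this comparison turns on the choice of Tfrc probe set. Hbb-y enters the globin class through 1436717_x_at, which lies near the top of the scale. With 1450621_a_at in its place the globin difference was 0.25, that of globins minus other erythroid genes 0.08 and that of globins minus Tfrc 0.06.

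**Figure D3:**
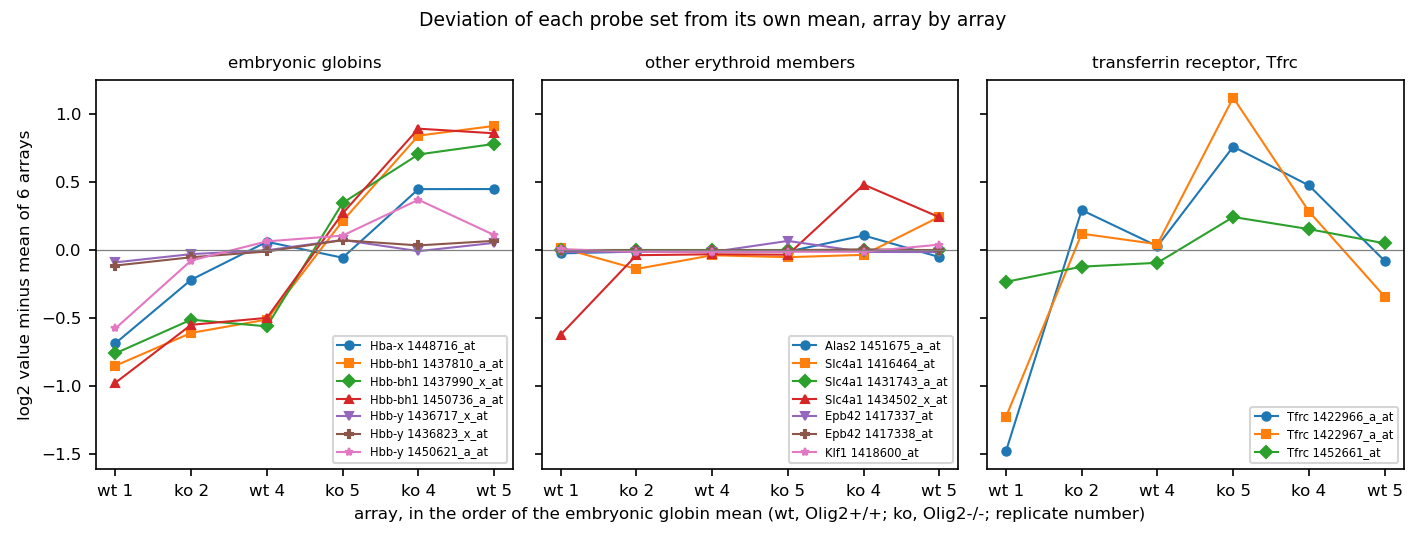
Deviation of each array from the 6-array mean (y axis, log2 units) for all 17 member probe sets, joined by lines for tracing only, with the arrays along the x axis ordered by the embryonic globin mean, so the rise in the globin panel follows from that order. Wild-type replicate 1 is lowest for 11 of the 13 tested probe sets, and both genotypes occur in the lower and the upper part of that order.

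Adult globins did not follow the embryonic ones array by array. The beta-type adult genes were read by a probe set that the annotation assigns to 4 symbols, Hbb-bt, Hbb-bs, Hbb-b2 and Hbb-b1 (1417184_s_at), so it stands for no single gene. It read 11.87, 11.46 and 11.46 in the knockout, with 11.85, 11.82 and 10.89 for the wild type. Knockout replicate 2 and wild-type replicates 1 and 4, the 3 lowest arrays in Hbb-bh1, were the 3 highest here, and wild-type replicate 5 was lowest. Its genotype difference was 0.07 (SE 0.29, limma adjusted p = 0.928).

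The adult alpha genes Hba-a1 and Hba-a2 shared 3 bright probe sets, and wild-type replicates 1 and 5 were the lowest arrays on each. On the brightest, 1452757_s_at, the knockout arrays read 13.08, 13.03 and 12.94 and the wild-type arrays 12.76, 13.05 and 12.80. Differences over the 3 were 0.12 to 0.24 with limma adjusted p from 0.565 to 0.611. Hba-a2 alone (1427219_at) read 5.63, 5.71 and 5.00 against 4.61, 4.10 and 4.92, with each knockout array above each wild-type array, a difference of 0.90 (SE 0.28, unadjusted p = 0.0181, limma adjusted p = 0.511). Hba-a1 alone was at the floor and Hbb-b2 alone (1427865_at) read 4.34 to 4.36 on every array, so neither showed a direction.

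**Figure D4:**
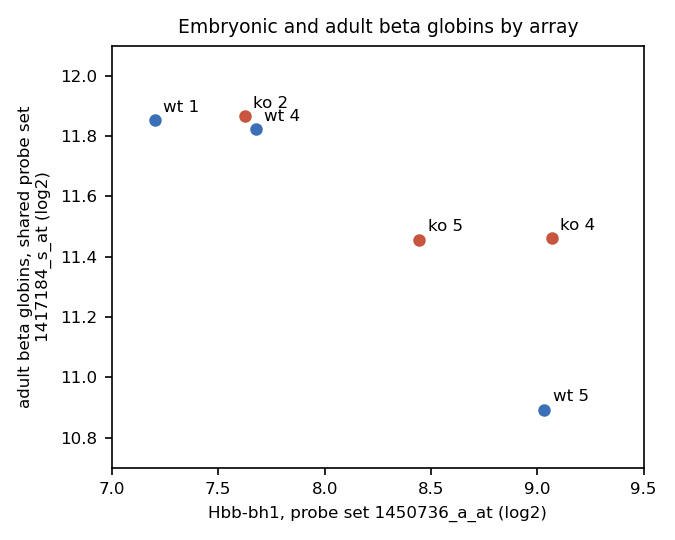
Embryonic Hbb-bh1 (1450736_a_at, log2 expression) against the adult beta-type probe set 1417184_s_at (log2 expression) shared by 4 genes, 1 point per array, coloured by genotype. The 3 arrays lowest in Hbb-bh1 (7.20 to 7.68) are the 3 highest in the adult beta-type probe set (11.82 to 11.87), and both genotypes occur at each end.

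The wider erythroid list held 44 genes, members included. Of these, 38 had a probe set named for them alone and 19 were tested, 12 with a higher and 7 with a lower mean in the knockout. None passed the adjusted p, and the median difference was 0.03 against 0.00 over all tested probe sets. Read by the brightest probe set, 1 of the 19 lay wholly above in the knockout (Hba-a2), against 8.96% of all tested probe sets. Wholly below were 2 of the 19, against 7.25%: Lmo2 and Add2, which are named here after their values were seen. Lmo2, a cofactor of Gata1 and Tal1 that endothelium also expresses, read 6.57, 6.63 and 6.81 in the knockout against 7.31, 6.82 and 7.11, a difference of -0.41 (SE 0.14, unadjusted p = 0.0315, limma adjusted p = 0.511). Add2, a protein of the membrane skeleton also made in neurons, differed by -0.22 (1431076_at, SE 0.11, limma adjusted p = 0.516). Of the 19 that were not tested, none exceeded 3.43 on any array, and 11 lay within 0.03 of the floor on all 6 arrays. Defining regulators and membrane genes were among those 11: Gata1, the lineage's central transcription factor, read 2.29 on each array, and Nfe2, Rhag (a Rh-complex protein) and Hemgn read 2.27. Gfi1b read 2.73 to 2.80 and Tal1 2.50 to 3.43, highest on wild-type replicate 5. Ank1, the ankyrin of the red cell skeleton, read 3.91 to 3.96, with 1 repeated value on most arrays, as had Hbb-b2 (1427865_at). As for Alas2, passing the filter does not show that their RNA was detected. Alas2, Ank1 and Hbb-b2 all count among the 12 with a higher mean, by 0.06, 0.02 and 0.007. Bcl11a, which silences embryonic globins in red cells and is also a gene of forebrain neurons, was bright at 9.87 to 10.37 on 1457072_at and differed by 0.04 (SE 0.17). Hbb-b1, Hbb-bs and Hbb-bt had no probe set of their own and were not analysed here singly.

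The genes of haem synthesis, Alas2 included, did not separate the genotypes by the test. All 14 haem genes with a probe set were tested, 5 with a higher and 9 with a lower mean, none passing, with a median difference of -0.05. The mean deviation of the haem genes was -0.07 to -0.01 on the knockout arrays and 0.01 to 0.08 on the wild-type arrays, so the knockout arrays were the lower ones. Read singly, 1 of the 14 genes lay wholly below and none wholly above, against 7.25% and 8.96% of all tested probe sets. Fech, which inserts iron into haem, differed by 0.01 (1449181_at, SE 0.09), Urod by 0.07 (1443849_x_at, SE 0.15) and Slc25a37, the mitochondrial iron carrier, by -0.16 (SE 0.16). These genes serve every cell that makes haem, so their values are not those of red cells alone.

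Iron handling genes around Tfrc showed no shared direction. Of 18 with a probe set 12 were tested, Tfrc included, 7 with a higher and 5 with a lower mean and none past the adjusted p, with a median difference of 0.03. Aco1, an iron sensor that binds the Tfrc messenger, read 10.29 to 10.36 in the knockout, with 10.03 to 10.09 for the wild type on 1456728_x_at (difference 0.24, SE 0.06, unadjusted p = 0.00891, limma adjusted p = 0.511). Its other tested probe set, 1423644_at, gave -0.24 (SE 0.10), so Aco1 has no settled direction. Ireb2, the partner sensor, differed by -0.03 (SE 0.08), Slc11a2, the exporter of iron from endosomes, by 0.09 (SE 0.13) and Slc40a1, the exporter of iron from cells, by 0.15 (1417061_at, SE 0.25). Fth1, the ferritin heavy chain that stores iron, gave -0.17 on 1448771_a_at (SE 0.15) and 0.27 on 1427021_s_at (SE 0.16). Steap3 read at most 2.51, and Trf and Ftl1 were not analysed here.

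Other cells that could carry Tfrc or travel with blood were read on the same arrays. Of 17 genes of dividing cells all were tested, 10 with a higher and 7 with a lower mean, and their summed level ran from 14.28 to 14.38 in the knockout, with 14.04 to 14.40 for the wild type. Wild-type replicate 1 was lowest in them (-0.20) and wild-type replicate 5 highest (0.14), the same ends as in the embryonic globins. Of 17 endothelial genes 13 were tested, 6 with a higher and 7 with a lower mean, with summed levels of 10.26 to 10.65 in the knockout, with 10.19 to 10.35 for the wild type. Cdh5 and Tie1, defining genes of endothelium, were among the 4 not tested, at 3.20 or less. Of 14 microglial genes 5 were tested, with summed levels of 6.82 to 6.92 in the knockout, with 6.52 to 6.93 for the wild type. Of 7 pericyte genes 5 were tested, 2 with a higher and 3 with a lower mean. Read singly, 1 dividing-cell, 1 endothelial and 1 pericyte gene lay wholly above in the knockout, against 8.96% of all tested probe sets. No tested gene of these lists lay wholly below, against 7.25%. The endothelial one was Pecam1 (1421287_a_at), named here after its values were seen. It read 4.30, 4.27 and 4.32 in the knockout against 3.38, 4.20 and 4.16, a difference of 0.385 (SE 0.23, limma adjusted p = 0.539). None of 6 platelet genes with a probe set was tested (at most 2.87). The part of these cells in the values of Tfrc and the globins was not tested.

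Genes whose pattern over the 6 arrays was most like that of Hba-x were Rpp30 (r = 0.995, n = 6 arrays), Mcm10, Inppl1, 1700123O20Rik, Cyb5r4, Parl, Rars2, Melk, Gemin8 and Mrps33 (r = 0.984). None of these 10 is on a list of blood or vessel genes, and their ranges, 0.25 to 0.81, were narrower than the 1.13 of Hba-x. Of 10624 non-member genes, each read by its brightest tested probe set, 190 had r above 0.9 with Hba-x. Hbb-y 1450621_a_at passed this value (r = 0.92, rho = 0.89) and Hbb-bh1 1450736_a_at just reached it (r = 0.90, rho = 0.89). Below it were Hbb-bh1 1437810_a_at (r = 0.88, rho = 0.94) and 1437990_x_at (r = 0.84, rho = 0.83). Hbb-y 1436823_x_at (r = 0.83, rho = 0.66) and 1436717_x_at (r = 0.66, rho = 0.60) were below it too. The brightest probe sets of Hbb-bh1 and Hbb-y, 1437990_x_at and 1436717_x_at, were thus both below it. For Tfrc (1452661_at) the nearest were Brip1os (r = 0.996), Slc7a6, Klhdc3, Mfsd6 and Ddit3 (r = 0.984), and 200 genes had r above 0.9. With 6 arrays, shared library and scaling, such likeness is a description and carries no test.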

How the data were processed

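The files hold log2 expression values per probe set, deposited by the authors for 6 arrays (Affymetrix MOE430 2.0). Per the series design text and the submitters' processing notes, images were processed with GCOS and MAS5, and signals were quantile-normalized, summarised and log2-transformed with GCRMA. The sources used here do not give versions. Genotype and replicate number came from the sample titles. Probe sets were named from the platform annotation (34945 with 1 symbol, 932 with several, 9160 unnamed here). Of 45037 non-control probe sets, 22565 were tested, those that on at least 3 arrays exceeded the array median. The test was limma 3.58.1 (R 4.3.3; lmFit, eBayes, two-sided, no covariate), adjusted by Benjamini-Hochberg over all of them, threshold 0.05. The fit was tested on simulated data with independent noise on each array. These held no outlying array, so that run does not cover the array differences seen here. A gene's brightest tested probe set stands for it in lists and classes. Named were all member probe sets, a stated set of globin, membrane, regulator, haem and iron genes whatever their values, and the 10 and 5 genes most correlated with Hba-x and Tfrc. The members and lists were chosen with earlier results of these data known. Alternatives covered filters, normalization, variance model, array weights, a replicate block, and arrays left out. Leaving out knockout replicate 2 with wild-type replicate 4, Tfrc alone as a mean, and Hbb-y by another probe set were chosen after seeing the data. The number of arrays limits the precision. Promoter windows came from RefSeq (GRCm38.p6) for 6 of 8 genes.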

Additional observations from a re-analysis of the deposited data

Results flagged for a closer look

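The arrays carry quality-control probe sets for the mouse transferrin receptor, which the member rule leaves out and which read the Tfrc messenger at 3 places along its length. The 3' control read 5.44, 5.74 and 6.03 on knockout replicates 2, 4 and 5 and 4.47, 5.14 and 5.11 on wild-type replicates 1, 4 and 5, a difference of 0.83 on the log2 scale with each knockout array above each wild-type array. The middle control read 3.68, 3.77 and 3.80 against 3.39, 3.66 and 3.50, a difference of 0.23, also without overlap. Both were singled out because each knockout array lay above each wild-type array in probe sets outside the comparisons. Their direction was thus fixed by that choice. The 5' control differed by 0.61, at 3.83, 3.85 and 4.64 against 2.84, 3.83 and 3.83. It was not wholly above only because knockout replicate 2 and wild-type replicate 4 both read 3.829. Such a repeated value can be one that GCRMA returns for background. Wild-type replicate 1 was lowest on all 3, as on the Tfrc probe sets, and the differences of these controls were not tested. Of all tested probe sets, 8.96% lay wholly above in the knockout. Among the controls of other genes, the 5' control of Gapdh also lay wholly above (0.12) and the 3' control of beta-actin wholly below (-0.27). The remaining controls of Gapdh and beta-actin overlapped.

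The gap between the 3' and 5' controls of Tfrc, a measure of RNA integrity and labelling, was 1.28 to 1.89 over the arrays, that of beta-actin 0.69 to 0.90 and that of Gapdh -0.65 to -0.41. The Gapdh gap was lower on each knockout array (-0.59, -0.59 and -0.65) than on each wild-type array (-0.41, -0.53 and -0.50). The gaps of Tfrc and beta-actin overlapped between the genotypes. The part of these gaps in the members' values was not tested.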

How the results depend on the processing

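No probe set passed the adjusted p of 0.05 under any alternative run. The count at an unadjusted p under 0.05, 2121 with all arrays, ran from 1121 without knockout replicate 5 to 3490 without wild-type replicate 4 and reached 3491 with array weights and 3276 with knockout replicate 2 and wild-type replicate 4 both left out. With 1 averaged value per gene it was 1252 of 13833 features, fewer than the 22565 tested otherwise without a change of filter. For single members, 172 of 185 alternative values kept their direction and 13 turned, none crossed the threshold, and adjusted p ran from 0.279 to 1. Array weights turned Hba-x to -0.16, Hbb-bh1 to -0.15 (1437810_a_at), -0.030 (1437990_x_at) and -0.053 (1450736_a_at), and Hbb-y 1436717_x_at to -0.0010. With 1 array left out, Hba-x ran from -0.20 to 0.37, Hbb-bh1 1437810_a_at from -0.052 to 0.83, Hbb-y 1436717_x_at from -0.013 to 0.058 and Hbb-y 1436823_x_at from -0.011 to 0.08. With each gene as the mean of all its tested probe sets, Tfrc differed by 0.74 and globins minus Tfrc by -0.55, and with Tfrc alone read so by 0.74 and -0.57, since the dimmer probe sets then count. That setting and Hbb-y by 1450621_a_at were chosen after seeing the data. The cause of the other changes was not tested.

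Whether a shared replicate number marks paired arrays is not given in the labels. Deviations from the group means correlated at -0.29 for number 4 and at 0.32 for number 5. The highest value, 0.38, was that of knockout replicate 2 with wild-type replicate 4. With the replicate block 2014 probe sets had an unadjusted p under 0.05 and none passed, Hba-x turned to -0.059, and Tfrc differed by 0.64, 0.85 and 0.22.

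Members at the floor give only bounds, and differences near the floor or the top of the scale can be compressed.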
